A study of Mus musculus with 12 samples.

Results

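Heat shock proteins, J proteins and other co-chaperones were examined in testis RNA of Wobbler mice, Wobbler mice with a modifier and wildtype mice. The genes were those whose platform symbol begins with Hsp (Hspg and 1 further Hsp gene left out), Dnaj, Bag and a digit, Fkbp, Ppi followed by a to h, or Pdia. This gave 77 genes of 9930 named on the array, measured by 124 cDNA probes. Of these, 72 had a value on at least 3 of the 4 arrays of every comparison and were tested. The other 5 (Dnajc1, Dnajc16, Dnajc17, Dnajc18 and Ppif) lacked values on too many arrays.

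Hsp70 proteins bind unfolded stretches of other proteins and release them in a cycle driven by ATP. J proteins, the Dnaj genes, bring substrates and start ATP hydrolysis, and Bag proteins help release the nucleotide. Hsp90 finishes the folding of kinases and steroid receptors together with co-chaperones, among them some FKBP prolyl isomerases. Cyclophilins also turn proline bonds, and protein disulfide isomerases form and rearrange disulfides in the endoplasmic reticulum (ER). Male germ cells use their own versions of several of these proteins, such as the Hsp70 form Hspa1l and the J proteins Dnajb3 and Dnajb8 of spermatids.

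Each of the 12 arrays was hybridised with 2 RNA pools, 1 labelled with Cy5 and 1 with Cy3, and each pool held testis RNA of 3 males on a Castaneus background. The pools were wildtype, Wobbler, or Wobbler modifier. The Wobbler allele (wr) is a recessive point mutation in Vps54, whose product helps vesicles dock at the Golgi, and males with 2 copies do not breed. The design text writes wr/wr for Wobbler and wr/mod for the modifier pools. It does not name the modifier, and the labels give no age. The 3 pairs were compared directly on 4 arrays each: Wobbler over wildtype, modifier over wildtype and modifier over Wobbler. Dyes were exchanged on replicates 3 and 4, whose values were multiplied by -1. All values below are log2 ratios, first-named genotype over the second, and which sign means higher is likely rather than certain: it rests on the array titles and the usual dye order. A ratio holds no level, so genes are not ranked by abundance and the tissue cannot be checked by marker levels. In whole testis, fewer cells of a type and less RNA per cell cannot be told apart. Whether replicate arrays used separate pools is not said, so the p-values cover array-to-array spread that may be purely technical.

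Between 18325 and 19584 spots per array held a usable ratio. Replicate 2 of Wobbler over wildtype was the widest array, with 13.9% of its deposited log2 ratios above 2. Of the 72 tested chaperone genes, 9 lay beyond 2 in either direction on that array, against 2, 1 and 1 on replicates 1, 3 and 4. On the other arrays the count was at most 2. Array medians of the chaperone genes were above 0 on replicates 1 and 2 of all 3 comparisons and lower on replicates 3 and 4, as were those of all features. The fit held a dye term for this.

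No chaperone gene passed an adjusted p under 0.05 in any comparison with limma. In Wobbler over wildtype 0 of 72 passed, where 0.306% of all 14729 features did. The count was 0 of 72 in modifier over wildtype (0.733% of all features) and 0 of 72 in modifier over Wobbler (0.414%). At an unadjusted p under 0.05 there were 12, 9 and 5 chaperone genes, or 16.7%, 12.5% and 6.94%, beside 15.7%, 7.33% and 11.5% of all features. The fit shares a feature's spread across comparisons, though arrays of Wobbler over wildtype spread more, so counts of different comparisons are not directly comparable. The 9 in modifier over wildtype all had negative ratios, which 5.22% of all features had at that p, and 0 were positive, against 2.11%. In Wobbler over wildtype 10 of 72 were positive (13.9%, against 7.22% of all features) and 2 negative (2.78%, against 8.47%). Against Wobbler 2 were positive (2.78%, against 7.03%) and 3 negative (4.17%, against 4.47%). Calls over all features after adjustment also leaned to lower in modifier over wildtype, 0.699% lower and 0.0339% higher. The 9 chaperone genes of that comparison were Hspa1l, Ppia, Bag1, Dnajb3, Dnajc15, Dnajc19, Dnajc5b, Hspa5 and Dnajc10.

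The median ratio of the chaperone genes was 0.05 for Wobbler against wildtype, -0.05 for modifier against wildtype and 0.11 for modifier against Wobbler. Over all features the medians were -0.01, 0.01 and 0.08. The middle of both distributions overlapped: the quartiles of the chaperone genes were -0.15 and 0.29, then -0.18 and 0.03, then -0.06 and 0.23, and those of all features -0.23 and 0.27, -0.14 and 0.14, and -0.12 and 0.24. The arrays spread as widely for these genes as for others, with median SDs over 4 arrays of 0.46, 0.27 and 0.34, against 0.49, 0.30 and 0.40 for all features.

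**Figure D1:**
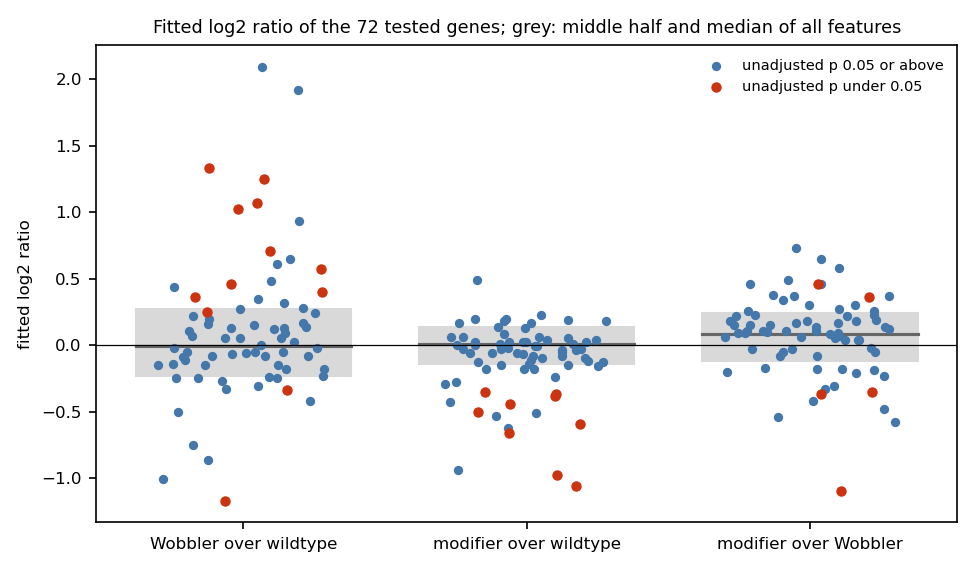
Fitted log2 ratio (vertical axis) of each of the 72 tested chaperone genes in the 3 comparisons, as points, red where the unadjusted p was under 0.05. Grey boxes span the quartiles of all 14729 features, with their median as a line. The 9 red points of modifier over wildtype all lie below 0, and 0 of 72 genes passed after adjustment in any comparison.

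**Figure D2:**
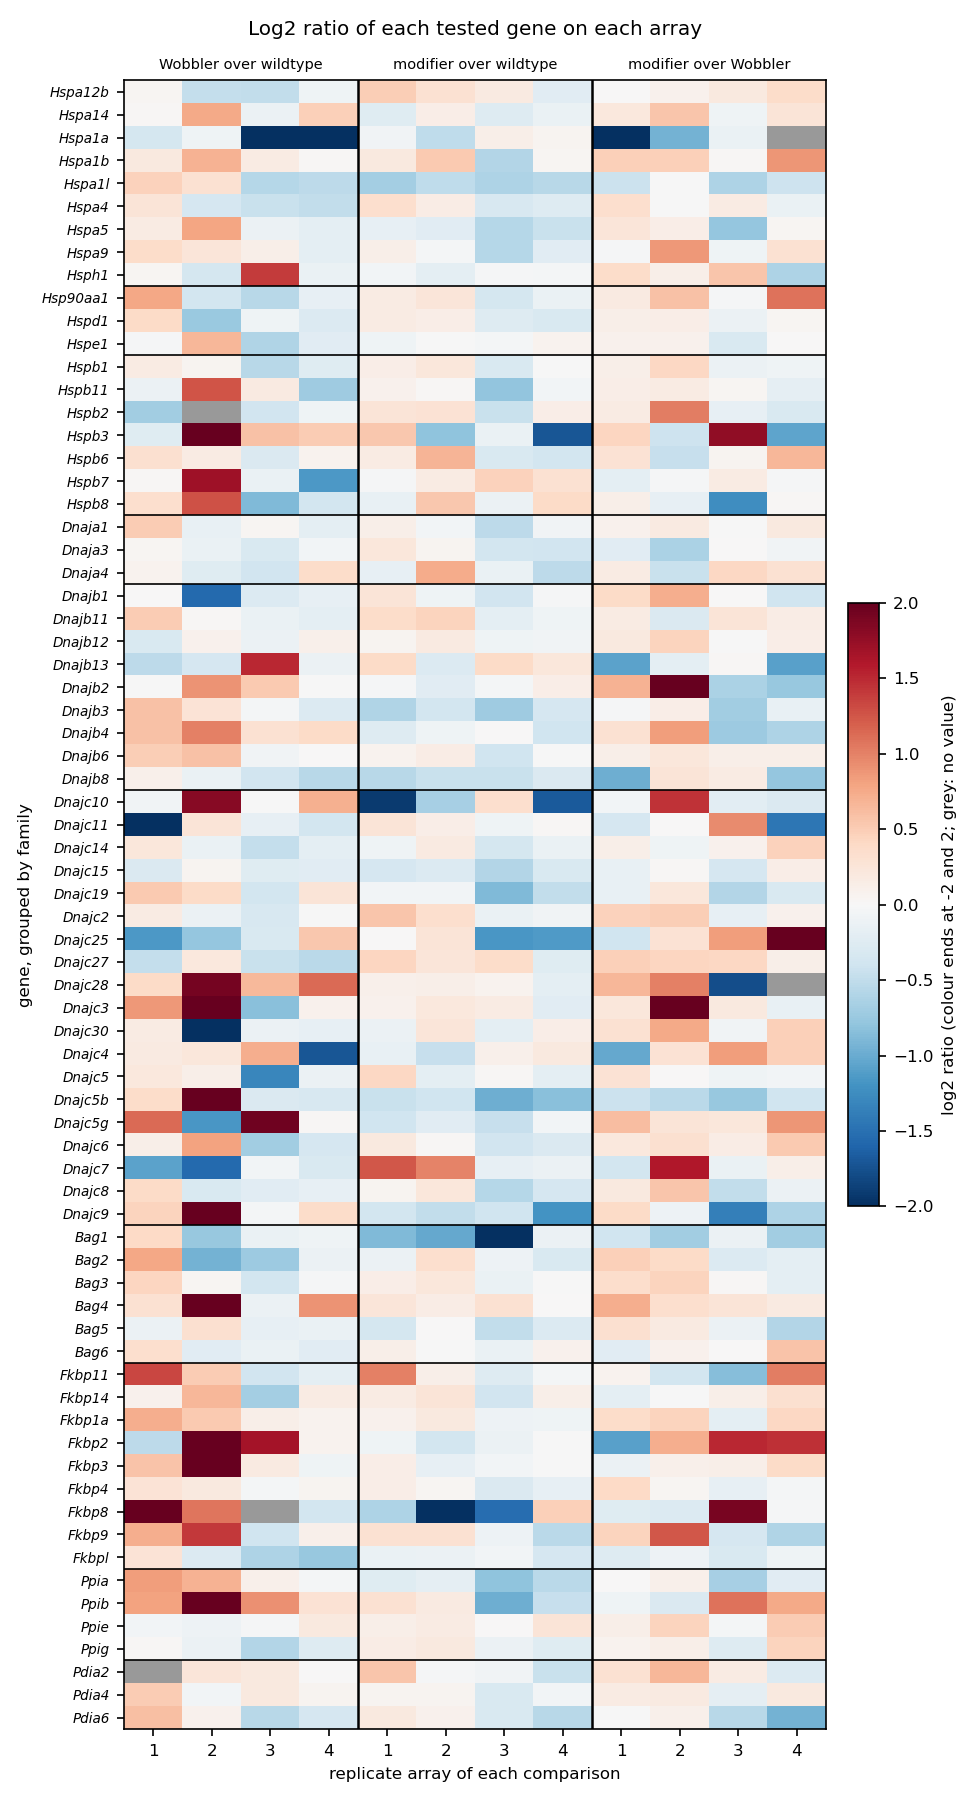
Log2 ratio of the 72 tested genes (rows, grouped by family) on the 12 arrays (columns, 4 replicates for each comparison), red above 0, blue below, colours ending at -2 and 2, grey without a value. Rows such as Hspa1l, Dnajb3, Dnajc15 and Dnajc5b are blue on all 4 arrays of modifier over wildtype, and the deepest red cells gather in replicate 2 of Wobbler over wildtype.

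Of the 72 tested chaperone genes, 6 were grouped as known from spermatids: Hspa1l, Dnajb3, Dnajb8, Dnajb13, Dnajc5b and Dnajc5g. This grouping was made with the results known and has no test of its own. It leaves out germ cell chaperones beyond the gene rule, such as Calr3, Clgn and Pdilt. Those were at 0.46, -0.03 and -0.24 in modifier over wildtype and at 0.39, 0.15 and 0.15 in modifier over Wobbler. In modifier over wildtype 5 of the 6 had negative ratios on all 4 arrays, and the median of the 6 was -0.47. One sign on every array was shown by 16 of 72 chaperone genes in this comparison (22.2%, against 19.2% of all features). Negative ratios on every array were found for 14 of 72 chaperone genes (19.4%), against 10.4% of all features. Positive ones were found for 2 of 72 (2.78%), Bag4 and Ppie, against 8.81%. With arrays first centred on their medians the shares were 20.8% against 24.6% for either sign, 18.1% against 13.5% for negative and 2.78% against 11.1% for positive. Against Wobbler 13 of 72 kept 1 sign (18.1%, against 17.8%), 7 positive (9.72%, against 11.0%) and 6 negative (8.33%, against 6.8%). Centred, these were 16 of 72 (22.2%, against 18.8%), 8 positive (11.1%, against 8.77%) and 8 negative (11.1%, against 9.99%).

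Hspa1l, the Hsp70 of spermatids, had ratios of -0.68, -0.51, -0.62 and -0.55 on replicates 1 to 4 of modifier over wildtype. The 4 arrays lay close together and all below 0. The fitted ratio was -0.59 ± 0.15 (SE, n = 4), or 1.51-fold, with a limma adjusted p of 0.155. Against Wobbler the arrays gave -0.43, -0.01, -0.62 and -0.42, with a fitted ratio of -0.37 ± 0.15 (SE, n = 4) and a limma adjusted p of 0.38. All were below 0, though replicate 2 was next to it. In Wobbler over wildtype they were 0.46, 0.30, -0.57 and -0.52, positive in 1 dye orientation and negative in the other, and the fitted ratio was -0.09 ± 0.15.

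Dnajb3, a J protein of spermatids, gave -0.60, -0.37, -0.71 and -0.33 in modifier over wildtype, all below 0, with a fitted ratio of -0.50 ± 0.14 (SE, n = 4) and a limma adjusted p of 0.226. Against Wobbler 3 of its 4 arrays were negative (-0.03, 0.14, -0.69 and -0.15), and the fitted ratio was -0.18 ± 0.14. Wobbler over wildtype was at 0.13 ± 0.14.

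Dnajc5b, the testis form of cysteine string protein, gave -0.45, -0.40, -0.97 and -0.83 against wildtype and -0.43, -0.54, -0.76 and -0.40 against Wobbler. All 8 values were negative. The fitted ratios were -0.66 ± 0.26 and -0.54 ± 0.26 (SE, n = 4 each), with limma adjusted p of 0.548 and 0.466. Its SE over all 12 arrays takes in replicate 2 of Wobbler over wildtype, where the gene stood at 2.01 beside 0.37, -0.29 and -0.32. Left out, the ratio against wildtype was unaltered at -0.66 with an adjusted p of 0.028, and it was then the 1 chaperone gene of 72 called (1.05% of all features). The 2 probes of Dnajc5b gave -0.90 and -0.42 against wildtype and -0.63 and -0.44 against Wobbler.

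The other spermatid chaperones varied more. Dnajb8, a J protein that holds back aggregation, was at -0.55, -0.45, -0.44 and -0.29 against wildtype, all below 0 (-0.43 ± 0.21, limma adjusted p 0.755), though 3 of its 19 spots over all arrays lay at whole-number ratios, a sign of low signal. Against Wobbler its arrays split, -0.97 and -0.77 on replicates 1 and 4 and 0.26 and 0.17 on the others. Dnajc5g, another cysteine string protein of testis, had -0.40, -0.23, -0.46 and -0.06 against wildtype (-0.29 ± 0.38) but 0.61, 0.26, 0.22 and 0.88 against Wobbler (0.49 ± 0.38). Dnajb13, of the radial spokes of the sperm tail, was at 0.18 ± 0.29 against wildtype and -0.58 ± 0.29 against Wobbler, with -1.07 and -1.09 on replicates 1 and 4 and -0.20 and 0.02 on the others.

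While 0 of the 6 spermatid chaperones passed in the modifier comparisons, some markers of late spermatids did. Of 18 listed, 17 were tested: 9 were lower in modifier over wildtype, 0 higher and 8 did not pass, with a median of -0.97 and a range from -1.60 to -0.30. Against Wobbler 5 were lower and 0 higher, with a median of -0.68. In Wobbler over wildtype 0 of 17 passed and the median was 0.04. Prm2, a protamine, was at -1.60 ± 0.21 against wildtype and Smcp, of the mitochondrial capsule, at -1.12 ± 0.10 (SE, n = 4 each, limma adjusted p 0.00867 and 0.000995). The part of these markers in the ratios of Hspa1l, Dnajb3 and the other spermatid chaperones was not tested. Leydig cell markers were lower too, 2 of 7 against wildtype and 1 of 7 against Wobbler, with medians of -0.77 and -0.50. The meiotic marker Syce2 (1 of 3 tested, of 15 listed) and the macrophage marker Tyrobp (1 of 5) were lower against wildtype. The other meiotic markers, Msh5 and Piwil1, were at 0.01 and 0.07 there. Of the macrophage markers, Cd68 and Fcer1g were at -0.01 and 0.08, and Aif1 and Lyz2 at -0.46 and -0.26. Of the markers of Sertoli cells (8 tested), spermatogonia (4), peritubular cells and vessels (6) and blood (2), 0 passed in any comparison.

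**Figure D3:**
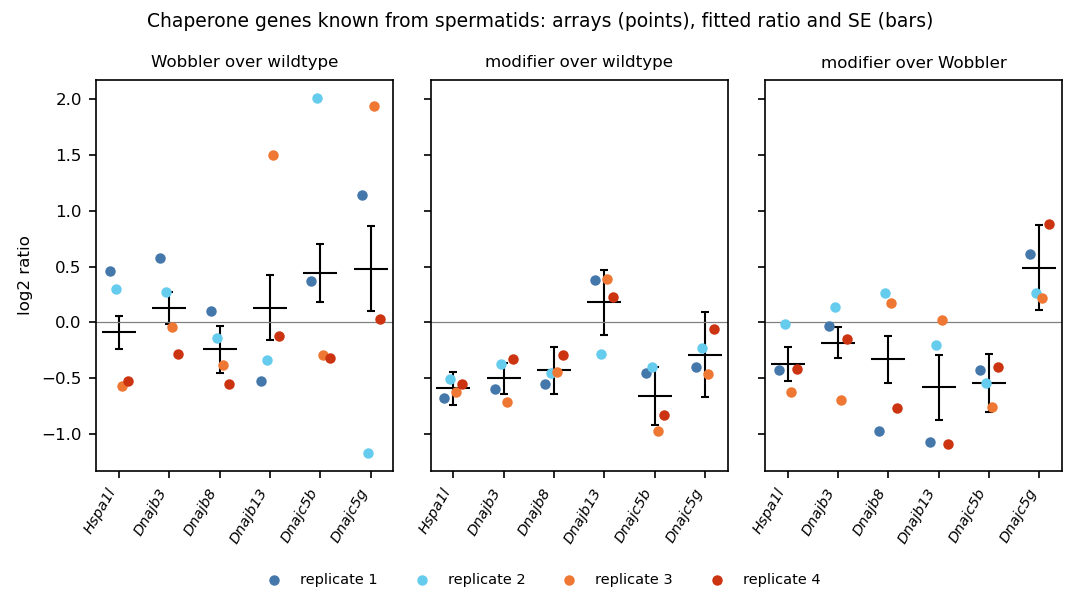
Log2 ratio (vertical axis) of the 6 chaperone genes grouped as known from spermatids on each array (points, 1 colour per replicate), with the fitted ratio and its SE as bars, in the 3 comparisons. In modifier over wildtype the points of Hspa1l, Dnajb3, Dnajb8, Dnajc5b and Dnajc5g all lie below 0, while those of Dnajb13 lie between -0.28 and 0.39.

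Hspa1a and Hspa1b are the stress-inducible Hsp70 genes and neighbours of Hspa1l. Heat shock factor binds inverted repeats of GAA in front of such genes. Their upstream sequence is shown because the copies are almost the same while their probes gave opposite ratios, and that of Hspa1l because its start lies 547 bases from that of Hspa1a on the other strand. The 250 bases before each start are from RefSeq, build GRCm38.p6, 5′ to 3′ on the gene's strand: Hspa1a at chr17:34972157-34972406 (minus), Hspa1b at chr17:34959239-34959488 (minus) and Hspa1l at chr17:34972453-34972702 (plus). Capitals mark matches to GAANNTTC or TTCNNGAA, searched on both strands.
Hspa1a: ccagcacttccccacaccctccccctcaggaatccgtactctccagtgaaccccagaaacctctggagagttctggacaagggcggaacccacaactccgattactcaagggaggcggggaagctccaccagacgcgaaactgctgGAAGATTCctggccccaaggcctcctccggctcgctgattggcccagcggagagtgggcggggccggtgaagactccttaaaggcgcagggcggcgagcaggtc
Hspa1b: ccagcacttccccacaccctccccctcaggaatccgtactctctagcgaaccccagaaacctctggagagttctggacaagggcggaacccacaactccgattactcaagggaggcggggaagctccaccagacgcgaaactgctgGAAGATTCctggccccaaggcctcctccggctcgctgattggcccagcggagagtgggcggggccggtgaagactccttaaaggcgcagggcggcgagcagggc
Hspa1l: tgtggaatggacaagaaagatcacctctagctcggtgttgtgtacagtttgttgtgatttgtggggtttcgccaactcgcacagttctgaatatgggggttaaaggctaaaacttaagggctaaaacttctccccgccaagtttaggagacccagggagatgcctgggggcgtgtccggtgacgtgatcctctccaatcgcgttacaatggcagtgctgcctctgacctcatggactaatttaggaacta

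The windows of Hspa1a and Hspa1b differed at 3 of 250 positions, and each held 1 match, 104 bases before the start. That of Hspa1l held none of these letters. Of 66 chaperone genes found in the promoter table by symbol, 15 held GAANNTTC or TTCNNGAA in these 250 bases, against 14.5% of 27025 genes. The longer form, in which 2 further bases and another GAA or TTC in alternating orientation follow, contains the shorter one and was held by 3 of 66 (Dnajb6, Hspd1 and Hspe1), against 0.514% of all. The 15 genes had median ratios of 0.07, -0.06 and 0.11 in the order Wobbler against wildtype, modifier against wildtype, modifier against Wobbler, and 0 of 15 passed in any.

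The probe named for Hspa1a gave -0.35, -0.09, -2.01 and -2.23 in Wobbler over wildtype, all below 0 but far lower in the exchanged orientation. Its fitted ratio was -1.17 ± 0.41 (SE, n = 4), or 2.25-fold, with a limma adjusted p of 0.24. Against Wobbler it had 3 values, -2.11, -0.95 and -0.13 (-1.10 ± 0.48, limma adjusted p 0.429), and in modifier over wildtype -0.10 ± 0.41. The probe named for Hspa1b gave 0.19, 0.70, 0.17 and 0.02 in Wobbler over wildtype (0.27 ± 0.17) and 0.48, 0.48, 0.02 and 0.88 in modifier over Wobbler (0.46 ± 0.17, limma adjusted p 0.348), none below 0. Each probe kept its sign with Wobbler as the first and as the second genotype, so its values do not agree on a direction for Wobbler. The transcripts of Hspa1a and Hspa1b are near-identical copies, a cDNA probe of 1 may bind the other, and the values of both are uncertain.

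Other members of the cytosolic Hsp70 system lay near 0. Hspa4 and Hsph1, nucleotide exchange factors of the Hsp110 type, had ratios of -0.25 ± 0.13 and 0.24 ± 0.27 in Wobbler over wildtype, the latter with 1.40 on replicate 3 and at most 0.04 elsewhere. In the modifier comparisons they lay between -0.08 and 0.11. Hspa14, which works at the ribosome with Dnajc2, was at 0.28, -0.13 and 0.23 in the same order of comparisons, and its partner Dnajc2 at -0.08, 0.17 and 0.22. The 3 probes of Hspa14 spanned -0.67 to 0.17 in modifier over wildtype. Hspa12b, a distant Hsp70 of endothelium, was at -0.25, 0.19 and 0.17. Its 4 arrays against Wobbler were all above 0, from 0.01 to 0.36.

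Dnajb1, the heat-inducible partner of Hsp70, gave 0.01, -1.56, -0.28 and -0.17 in Wobbler over wildtype. Replicate 2 stood apart, and the fitted ratio was -0.50 ± 0.26 (SE, n = 4), with a limma adjusted p of 0.367. In the modifier comparisons it was at -0.06 and 0.17. Class A J proteins Dnaja1, Dnaja3 and Dnaja4 had ratios between -0.23 and 0.11 over all 3 comparisons. Dnaja1, whose loss disturbs Sertoli cells in mice, was at 0.05, -0.13 and 0.11. Dnajb6, which suppresses aggregation, had 5 probes and ratios of 0.25, -0.05 and 0.15. Its arrays against Wobbler were all above 0, at 0.12, 0.23, 0.11 and 0.12.

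Dnajb4 had positive ratios on all arrays of Wobbler over wildtype, 0.59, 1.0, 0.31 and 0.39, with a fitted ratio of 0.57 ± 0.19 (SE, n = 4) and a limma adjusted p of 0.21. Its 2 probes differed there, 0.03 and 1.04. One sign throughout was shown by 9 of 72 genes here (12.5%, against 17.6%): 6 were positive throughout (8.33%, against 6.58% of all features) and 3 negative (4.17%, against 11.0%). Centred first, 16 of 72 kept 1 sign (22.2%, against 20.5%), and 16.7% were positive throughout against 10.4%, and 5.56% negative against 10.1%. Dnajb2 ranged from -0.76 to 2.53 over the arrays of modifier over Wobbler, the widest range of that comparison, and Dnajb12, of the ER membrane, lay between -0.06 and 0.19.

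Of the chaperones of the ER, Hspa5 (BiP), the Hsp70 of this compartment, and Pdia6, a disulfide isomerase, had the smallest p in 1 comparison each. The unfolded protein response acts on both through the ER stress element. It was searched as CCAAT, 9 bases of any kind and CCACG, on both strands, and was held by 3 of 66 chaperone genes (Hspa5, Pdia6 and Dnajc3), against 0.13% of 27025 genes. The 250 bases before the starts of Hspa5, at chr2:34771840-34772089 (plus), and Pdia6, at chr12:17266339-17266588 (plus), are given with the element in capitals (RefSeq, GRCm38.p6).
Hspa5: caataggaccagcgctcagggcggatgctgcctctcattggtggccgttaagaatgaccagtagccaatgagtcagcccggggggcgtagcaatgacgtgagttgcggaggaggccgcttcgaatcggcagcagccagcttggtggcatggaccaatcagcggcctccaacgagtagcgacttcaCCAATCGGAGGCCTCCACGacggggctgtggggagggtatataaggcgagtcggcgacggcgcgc
Pdia6: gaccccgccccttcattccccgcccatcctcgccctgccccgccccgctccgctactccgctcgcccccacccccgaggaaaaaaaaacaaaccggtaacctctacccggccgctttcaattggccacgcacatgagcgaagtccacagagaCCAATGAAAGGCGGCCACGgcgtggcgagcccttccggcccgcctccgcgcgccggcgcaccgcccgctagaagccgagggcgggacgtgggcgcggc

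The element began 65 bases before the start of Hspa5 and 98 bases before that of Pdia6. Hspa5 gave -0.16, -0.22, -0.57 and -0.44 in modifier over wildtype, all below 0, with a fitted ratio of -0.35 ± 0.15 (SE, n = 4) and a limma adjusted p of 0.631. Against Wobbler its arrays were 0.24, 0.14, -0.77 and 0.04, on both sides of 0 (-0.08 ± 0.15). Pdia6 was the chaperone gene with the smallest p in modifier over Wobbler, with -0.01, 0.10, -0.56 and -0.94 and a fitted ratio of -0.35 ± 0.12 (SE, n = 4, limma adjusted p 0.309). Only the exchanged orientation was clearly negative. Dnajc3, an inhibitor of the PERK kinase, was at 0.65 ± 0.38, 0.06 ± 0.38 and 0.58 ± 0.38, with 2.50 and 2.07 on replicate 2 of the Wobbler over wildtype and modifier over Wobbler arrays. The 3 genes with the element had ratios of both signs in every comparison, some of them within their SE of 0. Pdia6 was at -0.05 in Wobbler over wildtype and Dnajc3 at 0.06 in modifier over wildtype. A shared change of the 3 genes was not tested.

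Of the other ER chaperones, Dnajb11, Pdia4, Pdia2, Dnajc10, Ppib and the FKBPs of this compartment had positive ratios in Wobbler over wildtype. These were of widely differing size, and none passed after adjustment. Not all ER genes were positive there: Dnajb12 was at -0.06, and Dnajc1, not tested, lay between -5.45 and -0.17. Beyond the gene rule, Erp44, P4hb and Canx were at -0.61, -0.17 and -0.07, and Calr, Erp29 and Txndc5 at 0.20, 0.11 and 0.47. Dnajb11, a partner of BiP, lay between 0.05 and 0.13, and Pdia4 between -0.06 and 0.17. Pdia2 was at 0.22 ± 0.17 in Wobbler over wildtype on 3 arrays. Dnajc10, a reductase, had -1.91, -0.66, 0.33 and -1.68 in modifier over wildtype (-0.98 ± 0.43, limma adjusted p 0.666), and its probes gave -1.11 and -0.85. Those probes disagreed in the other comparisons, at -0.18 and 1.41 in Wobbler over wildtype and -0.44 and 1.29 in modifier over Wobbler. Ppib, the cyclophilin of the ER, was positive on all arrays of Wobbler over wildtype, at 0.81, 2.99, 0.91 and 0.29 (1.25 ± 0.40, limma adjusted p 0.206). Without replicate 2 it was at 0.67, and its probes gave 0.57 and 1.93. Those probes of Ppib gave 0.02 and 0.71 in modifier over Wobbler and -0.37 and -0.11 in modifier over wildtype. The direct comparison thus does not show Wobbler as the higher genotype. Fkbp2, Fkbp9, Fkbp11 and Fkbp14, the FKBPs of this compartment, were at 0.93 ± 0.49, 0.46 ± 0.19, 0.32 ± 0.31 and 0.05 ± 0.19 in Wobbler over wildtype and between -0.15 and 0.20 in modifier over wildtype. The arrays of Fkbp2 were -0.52, 2.51, 1.67 and 0.07 in the former, and without replicate 2 it was at 0.23. Those of Fkbp9 were 0.72, 1.41, -0.40 and 0.10, highest on the same replicate. Over all FKBPs, 8 of 9 were positive in Wobbler over wildtype, with a median of 0.36, beside 49.2% of all features. The medians of the other families there lay between -0.08 and 0.20. Fkbp2, Fkbp3 and Fkbp9 were highest on the wide replicate 2, and Fkbp8 had an extreme value on replicate 1. At an unadjusted p under 0.05 there were 4 of the 9, beside 15.7% of all features. Fkbp1a, Fkbp3 and Fkbp9 were positive and Fkbpl negative, and 0 passed after adjustment. In modifier over Wobbler 7 of the 9 FKBPs were positive, with a median of 0.12, beside 61.6% of all features. In modifier over wildtype 3 of the 9 were, with a median of -0.03, beside 52.5%. Most FKBPs were thus positive with Wobbler as the first and as the second genotype, so they do not agree on a direction for Wobbler. The family has no test of its own.

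In mitochondria, Hspa9 pulls proteins inward with the import J proteins, and Hspd1 and Hspe1 form the folding chamber. Dnajc15, 1 of the J proteins at the import channel, gave -0.33, -0.27, -0.58 and -0.31 in modifier over wildtype, with a fitted ratio of -0.37 ± 0.11 (SE, n = 4) and a limma adjusted p of 0.289. Dnajc19, its paralog, gave -0.06, -0.06, -0.89 and -0.50 (-0.38 ± 0.13, limma adjusted p 0.408), and its probes -0.50 and -0.25. All arrays of both were below 0. Against Wobbler they were at -0.08 ± 0.11 and -0.20 ± 0.13, with arrays on both sides of 0. Hspd1 and Hspe1, which share a promoter region, were within 0.18 of 0 in all comparisons. Hspa9 was at 0.14, -0.18 and 0.27, and its 4 probes spanned -0.76 to 0.18 in modifier over wildtype. Dnajc11 and Dnajc30, also of mitochondria, had -3.17 on replicate 1 and -3.92 on replicate 2 of Wobbler over wildtype respectively, while their other arrays there lay between -0.37 and 0.26.

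Hsp90aa1, the inducible Hsp90, was at -0.08 ± 0.22, -0.01 ± 0.22 and 0.46 ± 0.22, the last from arrays of 0.18, 0.59, -0.02 and 1.08 in modifier over Wobbler (limma adjusted p 0.468). Fkbp4, which accompanies Hsp90 on the androgen receptor, had among the smallest errors of the set, at 0.12 ± 0.10, -0.07 ± 0.10 and 0.06 ± 0.10. Dnajc7, which binds Hsp70 and Hsp90, had -1.07, -1.56, -0.05 and -0.31 in Wobbler over wildtype (-0.75 ± 0.37) and 1.24, 0.99, -0.16 and -0.11 in modifier over wildtype (0.49 ± 0.37), in each case large only on replicates 1 and 2. Fkbpl, an FKBP relative that binds Hsp90, was negative on all arrays against Wobbler, from -0.31 to -0.08, and against wildtype, from -0.34 to -0.06, and its fitted ratios were -0.18 ± 0.14 and -0.16 ± 0.14.

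Of the Bag proteins, Bag1, which also binds Bcl2, had the largest ratio in modifier over wildtype, -1.06 ± 0.29 (SE, n = 4), or 2.08-fold, with a limma adjusted p of 0.22. Its arrays were -0.88, -1.02, -2.23 and -0.11, all below 0 but over a wide range. Against Wobbler they were -0.40, -0.70, -0.12 and -0.69 (-0.48 ± 0.29). In Wobbler over wildtype they lay on both sides of 0 (-0.14 ± 0.29). Bag4 was positive on all arrays of both modifier comparisons, at 0.18 ± 0.39 and 0.38 ± 0.39. It stood at 3.20 on replicate 2 of Wobbler over wildtype, and its probes gave -0.02 and 2.16 there. Bag6, needed in male meiosis, was at -0.07, 0.02 and 0.11. Bag2, Bag3 and Bag5 lay between -0.28 and 0.15.

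Ppia, cyclophilin A, had ratios of opposite sign in the 2 comparisons with wildtype. Its arrays were 0.84, 0.69, 0.10 and -0.04 in Wobbler over wildtype (0.40 ± 0.11, limma adjusted p 0.16) and -0.24, -0.18, -0.81 and -0.54 in modifier over wildtype (-0.44 ± 0.11, limma adjusted p 0.161). The former had 3 of 4 arrays above 0 and the latter all 4 below. In the direct comparison of modifier with Wobbler it was at -0.19 ± 0.11 (limma adjusted p 0.552), from 0.0, 0.10, -0.66 and -0.22. The 2 ratios against wildtype would give a larger difference between modifier and Wobbler than the direct -0.19, so the values do not match in size. These comparisons share RNA of the same genotypes, so their values are given side by side without a test between them. Ppie, a cyclophilin of the spliceosome, was at 0.0, 0.14 and 0.26, and Ppig was within 0.23 of 0. Fkbp1a, the target of FK506, was above 0 on all arrays of Wobbler over wildtype, at 0.73, 0.53, 0.12 and 0.07 (0.36 ± 0.12, limma adjusted p 0.208), and its probes were close, 0.27 and 0.46. The same probes gave 0.30 and 0.21 in modifier over Wobbler and 0.01 and 0.03 in modifier over wildtype. Fkbp1a thus had no lower ratio in modifier than in Wobbler when compared directly. Fkbp3 was at 0.71 ± 0.28 in Wobbler over wildtype, with 2.16 on replicate 2. Fkbp8, of mitochondrial membranes, ranged from -0.36 to 5.11 on its 3 arrays of Wobbler over wildtype and from -2.11 to 0.48 in modifier over wildtype.

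**Figure D4:**
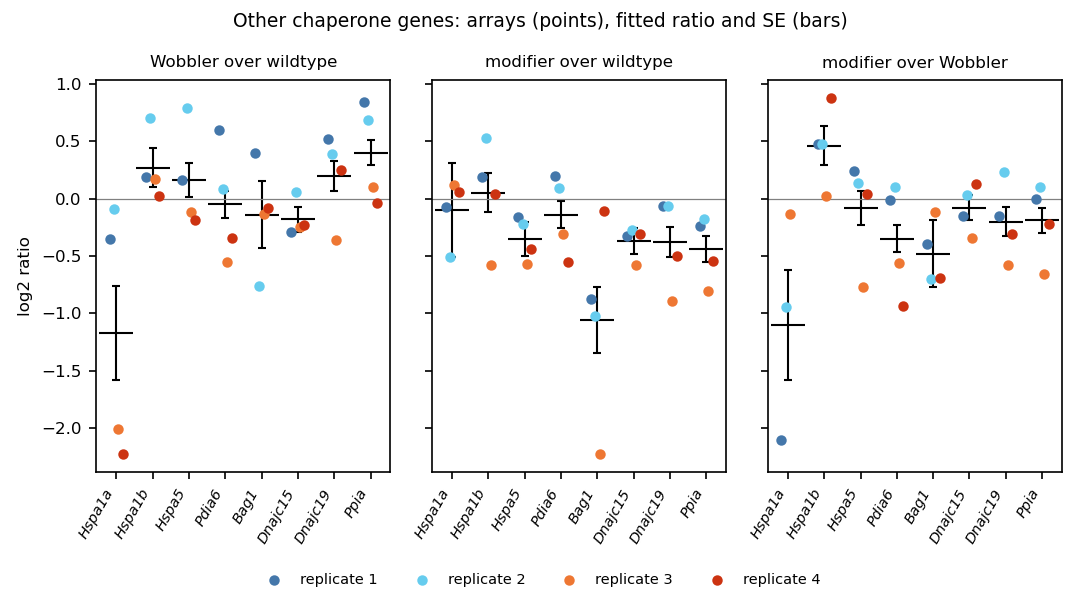
Log2 ratio (vertical axis) of 8 further chaperone genes on each array (points, 1 colour per replicate), with the fitted ratio and its SE as bars. In modifier over wildtype all points of Hspa5, Bag1, Dnajc15, Dnajc19 and Ppia lie below 0. Hspa1a lies below Hspa1b both where Wobbler is the first genotype and where it is the second.

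Small heat shock proteins hold unfolded proteins without ATP, and most are abundant in muscle. Hspb1 was at -0.15, 0.01 and 0.08 with SEs of 0.11. Hspb2 was negative on its 3 arrays of Wobbler over wildtype, -0.70, -0.38 and -0.09 (-0.33 ± 0.24). Hspb3 had the highest fitted ratio of all tested chaperone genes there, 2.09 ± 1.03 (SE, n = 4). It rested on 7.50 on replicate 2, beside -0.24, 0.58 and 0.50, and was 0.28 without that array. Hspb6, Hspb7 and Hspb8 lay between -0.31 and 0.23. Hspb11, a subunit of intraflagellar transport despite its name, was at 0.15, -0.18 and 0.04.

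The remaining J proteins of class C had diverse roles. Dnajc27, a small GTPase with a J domain, gave -0.47, 0.21, -0.45 and -0.54 in Wobbler over wildtype (-0.31 ± 0.14, limma adjusted p 0.319) and 0.47, 0.43, 0.42 and 0.11 in modifier over Wobbler (0.36 ± 0.14, limma adjusted p 0.368). Wobbler RNA was thus on the lower side on 3 of 4 and 4 of 4 arrays. Dnajc28 was positive on all arrays of Wobbler over wildtype, 0.39, 1.91, 0.65 and 1.14 (1.02 ± 0.35, limma adjusted p 0.237), but 2 of its 11 spots over all arrays lay at whole-number ratios. Dnajc9, a histone chaperone partner, was at 1.33 ± 0.53 there with 4.55 on replicate 2, and at 0.36 without it. Dnajc6 (auxilin), which uncoats clathrin vesicles, was positive on all arrays against Wobbler, from 0.15 to 0.53. Dnajc25 gave 0.01, 0.25, -1.16 and -1.14 in modifier over wildtype, and its probes -1.51 and 0.11. Dnajc4, Dnajc5, Dnajc8 and Dnajc14 lay between -0.27 and 0.15.

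A ratio of 2-fold or more either way was reached by 8 of 72 genes in Wobbler over wildtype (Bag4, Dnajc28, Dnajc30, Dnajc9, Fkbp8, Hspa1a, Hspb3 and Ppib), or 11.1%, against 5.94% of all features. In 6 of them, all but Fkbp8 and Hspa1a, replicate 2 held the most extreme value. Against wildtype the modifier had 1 such gene, Bag1, and against Wobbler 1, Hspa1a, or 1.39%, against 1.39% and 3.23%.

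Where a gene had several probes, they often disagreed. Both or all probe means had the same sign for 14 of 30 such genes in Wobbler over wildtype, 12 of 31 in modifier over wildtype and 17 of 32 in modifier over Wobbler. The median gap between the lowest and the highest probe was 0.44, 0.23 and 0.36. Fkbp2 and Hspb8 were, with Dnajc10, those with the widest gaps in modifier over Wobbler.

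**Figure D5:**
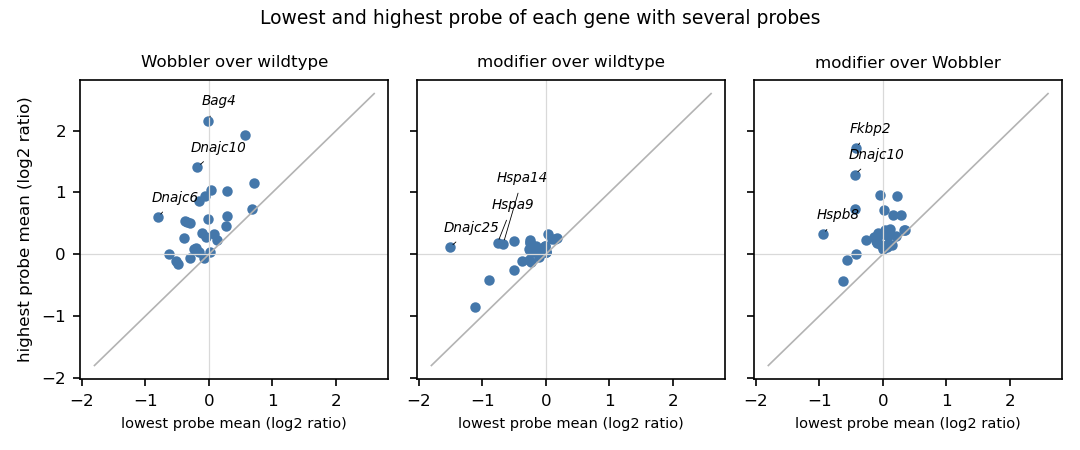
Lowest probe mean (horizontal axis, log2 ratio) against highest probe mean (vertical axis, log2 ratio) of each chaperone gene with several probes, in the 3 comparisons, with the line of equality and the 3 widest gaps named. The gap was largest for Bag4 in Wobbler over wildtype, -0.02 against 2.16.

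A further list held 79 other genes of folding and protein stress, of which 50 were tested, and 0 of 50 passed in any comparison. At an unadjusted p under 0.05 there were 5, 3 and 7, or 10.0%, 6.0% and 14.0%, beside 15.7%, 7.33% and 11.5% of all features. The medians were 0.0, -0.04 and 0.04. Cryab, a small heat shock protein of muscle and lens, was at -1.49 ± 0.42 (SE, limma adjusted p 0.173) in Wobbler over wildtype. Odf1, a small heat shock relative in the sperm tail, also in the late spermatid list, was at -0.76 ± 0.21 against wildtype (limma adjusted p 0.218) and -0.59 ± 0.21 against Wobbler (limma adjusted p 0.326). Clpb, a mitochondrial disaggregase, was at -0.68 ± 0.19 and -0.58 ± 0.19 in these comparisons (limma adjusted p 0.224 and 0.287), and Tbca, a tubulin folding cofactor, at -0.42 ± 0.14 and -0.41 ± 0.14 (0.361 and 0.313). Those were the 3 genes of the list under that p against wildtype, all negative. Against Wobbler the other 4 of 7 were positive: Clpx and Clpp, the mitochondrial unfoldase and its protease, at 0.71 ± 0.30 and 0.52 ± 0.22, Ptges3, the Hsp90 co-chaperone p23, at 0.50 ± 0.20, and Unc45b, a myosin chaperone, at 0.36 ± 0.16 (limma adjusted p from 0.38 to 0.423). In Wobbler over wildtype the others were Derl3 (-0.52), Trap1 (-0.35), Sec63 (0.56) and Tbca (0.36).

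Processing decided whether any chaperone gene was called in modifier over wildtype. With arrays scaled to equal spread 6 of 72 passed, all lower (3.34% of all features): Ppia (-0.58, adjusted p 0.0153), Hspa1l (-0.80, adjusted p 0.0257), Dnajc5b (-0.88, adjusted p 0.0311), Bag1, Dnajc15 and Dnajb3. Scaling enlarged the ratios on these narrower arrays, so the scaled values are not larger fold changes than those of the main fit. With array weights 8 passed, all lower (4.81% of all features), the same 6 with Hspa5 and Dnajc19. In the model of the whole loop 1 passed, Hspa1l at -0.55 ± 0.12 (1.52% of all features, limma adjusted p 0.0478). Read as channel 1 over channel 2, with no array turned, 0 passed and Hspa1l was at 0.0. In the other two comparisons 0 of the tested chaperone genes passed under any alternative run.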

How the data were processed

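Testis RNA pools were compared on 12 two-colour cDNA arrays. The authors deposited 1 log2 ratio per spot. For scanner, background correction, normalization and log base: not given in the sources used here. Base 2 was read from the values. The labelling protocol mentions a reference pool of control animals; the channel labels, which name a genotype for each dye, were followed. A repeated value log2(100000) above each array's shift was treated as missing (22 to 165 spots per array). Values of replicates 3 and 4 were multiplied by -1. Probes were named from the platform annotation (14030 of 20355 with 1 symbol, 5 with several, 6320 with none) and averaged per gene and array. The 77 genes matched a GRCm38.p6 gene table by identifier, with 0 symbols changed. Features with a value on 3 of 4 arrays of every comparison (14729 of 16255) were fitted over all 12 arrays (R 4.3.3, limma 3.58.1): each comparison had its own mean and all shared a dye term, and p-values were adjusted by Benjamini-Hochberg within a comparison. SEs pool a feature's spread across the comparisons, and n counts arrays of one comparison. The SD of deposited ratios was 0.731 to 1.608 on arrays of Wobbler over wildtype and 0.617 to 0.74 on those of modifier over wildtype. Pooled SEs can thus be too small for the former comparison and too large for the latter, and the counts called depend on this. The fit was tested on simulated data. The number of arrays limits precision.

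Genes were named if they passed, were among the 6 higher and 6 lower with the smallest p and 1 sign throughout, had a known role in testis or heat shock, or were among the 3 with the widest spread or probe gap. The rule leaves out Dnaja4, Dnajb12, Dnajc1, Dnajc3, Dnajc4, Dnajc5, Dnajc8, Dnajc11, Dnajc14, Dnajc16, Dnajc17, Dnajc18, Dnajc30, Fkbp3, Fkbp9, Fkbp11, Fkbp14, Hspb6, Hspb7 and Ppig, which were named after their values were seen, to account for every gene, as were the genes of the folding and marker lists. The genes and lists were chosen with earlier results of these data known. Spots at ratios of whole numbers up to 5 (within 0.001 of the shift) were taken as low signal: 44 of 1412 spots of these genes. Marker lists for meiotic spermatocytes, spermatogonia, Sertoli cells, macrophages, peritubular cells and vessels, and blood were also examined. Alternatives changed centring, scaling, dye term, model, weights, filters, probe summary, reading of the ratio and the set of arrays.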

Additional observations from a re-analysis of the deposited data

Results flagged for a closer look

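Among 163 groups of 4 arrays of the named chaperone genes, 15 had 1 array far from the others. Chance flags about 1 in 20, but some of these genes, such as Hspb3 and Dnajc9, were named for their wide spread. The count can therefore not be set against that rate. Of these 15, 5 were replicate 2 of Wobbler over wildtype: Hspb3 at 7.50 (others -0.24 to 0.58), Dnajc9 at 4.55 (others -0.04 to 0.44), Bag5 at 0.32 (others -0.16 to -0.11), Dnajc15 at 0.06 (others -0.29 to -0.23) and Dnajc27 at 0.21 (others -0.54 to -0.45). In the same comparison Bag6 was at 0.33 on replicate 1 (others -0.23 to -0.14).

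In modifier over wildtype, Dnajc9 was at -1.20 on replicate 4 (others -0.50 to -0.36), Dnajc28 at -0.19 on replicate 4 (others 0.07 to 0.12) and Hspb11 at -0.79 on replicate 3 (others -0.05 to 0.09). In modifier over Wobbler, Fkbp8 was at 1.90 on replicate 3 (others -0.28 to -0.03), Fkbp1a at -0.19 on replicate 3 (others 0.36 to 0.45) and Pdia4 at -0.18 on replicate 3 (others 0.16 to 0.19). Dnajc10 was at 1.45 on replicate 2 (others -0.29 to -0.05), Dnajb6 at 0.23 on replicate 2 (others 0.11 to 0.12) and Dnajc27 at 0.11 on replicate 4 (others 0.42 to 0.47).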

How the results depend on the processing

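Counts of called chaperone genes were 0 in Wobbler over wildtype and modifier over Wobbler under every alternative run, also with 1 array left out (0 to 0). In modifier over wildtype the count was 6 with arrays scaled to equal spread, 8 with array weights, 1 in the loop model and 0 to 1 with 1 array left out, the 1 being Dnajc5b without replicate 2 of Wobbler over wildtype; it was 0 otherwise. The cause was not tested. The median of the chaperone genes in modifier over wildtype was 0.14 read as channel 1 over channel 2, against -0.05, and -0.09 to -0.05 with 1 array left out. The other medians were 0.04 to 0.07 and 0.06 to 0.13 with 1 array left out.

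With the replicate number as a block, 0 genes were called in each comparison and the medians were 0.05, -0.05 and 0.11. The titles share only numbers: deviations of same-numbered arrays from their group means correlated between -0.0286 and 0.0653 across features, those of other pairs between -0.0892 and 0.12.

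The counts at an unadjusted p under 0.05, added after the adjusted counts were seen, lay between 7 and 16, 6 and 10, and 4 and 9 for Wobbler over wildtype, modifier over wildtype and modifier over Wobbler with 1 array left out. The lowest of the first, 7, came without replicate 4 of that comparison, and the highest of the last, 9, without replicate 2 of Wobbler over wildtype. Each comparison fitted alone gave 4, 10 and 3, the loop model 3, 7 and 10, array weights 8, 14 and 5, no dye term 9, 6 and 3, and channel 1 over channel 2 gave 14, 1 and 6. Of 1393 ratios of named genes per comparison under alternatives, 62, 76 and 66 changed sign, 23, 30 and 26 of them in the reading as channel 1 over channel 2, and 0 became called with the other sign. No intensities were used, so low signal could be judged only from whole-number ratios.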
